A study of Mus musculus with 12 samples.

Results

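The 10 genes Cldn5, Pecam1, Cdh5, Kdr, Flt1, Tek, Slco1a4, Ly6c1, Vwf and Eng are markers of brain endothelial cells and of the blood-brain barrier, and were taken by symbol from the 55376 symbols of the count table. All 10 were found, and all 10 were among the 17716 genes tested. They were read in RNA-Seq of cells sorted by FACS from mouse brain at P40 as O1+ and CD45-, O1 being a surface lipid of differentiating oligodendrocytes and CD45 a marker of leukocytes. The sorting scheme of the study also left out CD11b+ cells, CD11b being a marker of myeloid cells and microglia. On reanalysis by cytometry, the study found the sorted O1+ cells not fully pure, with no overt CD45+ contamination. It does not fully exclude that some other cells were carried along in small numbers. There were 4 samples of WT mice, 4 of Cnp-Cre Jab1fl/fl mice and 4 of double mutants (Cnp-Cre Jab1fl/fl p21CIP1-/-), all labelled C57BL/6, and each held cells of 2 brains. The study lists the Jab1 and Cnp-Cre lines as C57Bl/6J and the strain of the p21CIP1 knockout line, which was backcrossed, as 129S6/SvEvTac. Jab1 (symbol Cops5) encodes a subunit of the COP9 signalosome. Both mutant genotypes carried floxed alleles of it and a Cre driven from the oligodendrocyte gene Cnp. The double mutants are labelled as also carrying knockout alleles of p21CIP1 (Cdkn1a), an inhibitor of the cell cycle, which are not limited to oligodendrocytes. Genotypes below are those of the labels. The Cre is thus not aimed at endothelial cells, and whether Jab1 was also deleted in any of them was not analysed here. Because the samples are bulk RNA, more cells of a type and more RNA per cell cannot be told apart in any of the values below. Levels are also relative to the whole library, so that less RNA from other cells cannot be told apart from either.

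Endothelial cells line the capillaries of the brain and form the blood-brain barrier, which depends on sealed junctions between neighbouring cells and on transporters in their membranes. Cldn5 and Cdh5 encode the main claudin of the tight junction and the cadherin of the adherens junction, and Pecam1 an adhesion molecule at the same contacts. Kdr, Flt1 and Tek encode receptor tyrosine kinases, the first pair for VEGF ligands and the last for angiopoietins, and Eng a coreceptor for BMP and TGF-β ligands. Slco1a4 encodes an organic anion transporter, Ly6c1 a small lipid-anchored surface protein, and Vwf the clotting factor that endothelial cells and platelets store.

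The genes lie on 8 chromosomes of GRCm38, and all are protein coding. Cldn5 is a gene of 1 exon block at chr16:18776847-18778262, and Ly6c1 one of 6 at chr15:75044018-75048830. Cdh5 (12 blocks) spans chr8:104101625-104144511, Pecam1 (17) chr11:106654217-106750628, Tek (23) chr4:94739289-94874976 and Eng (14) chr2:32646595-32682669. The VEGF receptor genes Kdr and Flt1, with 30 blocks each, lie apart on chromosome 5, at chr5:75932827-75978458 and chr5:147561604-147726011. Slco1a4 (17 blocks) and Vwf (54) share chromosome 6, at chr6:141805440-141856199 and chr6:125546774-125686679. Merged exons range from 1416 bases (Cldn5) to 10961 bases (Flt1), so that levels of different genes are compared below only per kb of exon.

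The sequences directly before the start of 4 of the 5 genes that later passed the test are shown because these genes have no common name or family but moved together. They are the 250 bases upstream of the RefSeq start (build GRCm38.p6), written 5′ to 3′ on the strand of the gene. Capitals mark AGGAAG, a core bound by ETS factors of the endothelium, and TATAAA, the TATA box, each searched on both strands.
Cldn5, chr16:18776597-18776846, plus strand: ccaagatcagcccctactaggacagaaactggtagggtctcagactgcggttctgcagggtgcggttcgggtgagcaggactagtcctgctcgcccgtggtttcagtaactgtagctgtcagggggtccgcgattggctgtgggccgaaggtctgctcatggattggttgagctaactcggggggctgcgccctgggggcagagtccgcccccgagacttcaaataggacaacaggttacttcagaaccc
Flt1, chr5:147726012-147726261, minus strand: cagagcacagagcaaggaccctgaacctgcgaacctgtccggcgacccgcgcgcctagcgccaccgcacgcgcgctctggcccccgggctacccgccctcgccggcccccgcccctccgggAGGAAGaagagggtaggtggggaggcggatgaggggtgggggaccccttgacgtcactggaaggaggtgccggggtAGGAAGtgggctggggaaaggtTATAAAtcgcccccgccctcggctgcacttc
Slco1a4, chr6:141856221-141856470, minus strand: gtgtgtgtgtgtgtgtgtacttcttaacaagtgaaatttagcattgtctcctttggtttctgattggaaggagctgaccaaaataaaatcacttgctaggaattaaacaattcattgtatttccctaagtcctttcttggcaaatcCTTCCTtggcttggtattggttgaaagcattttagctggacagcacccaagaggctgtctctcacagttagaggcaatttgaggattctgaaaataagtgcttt
Ly6c1, chr15:75048838-75049087, minus strand: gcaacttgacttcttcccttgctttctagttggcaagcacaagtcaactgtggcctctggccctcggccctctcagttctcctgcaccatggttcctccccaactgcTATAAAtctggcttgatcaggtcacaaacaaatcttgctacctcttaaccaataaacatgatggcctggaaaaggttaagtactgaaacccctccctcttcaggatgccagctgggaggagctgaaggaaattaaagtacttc
The table of RefSeq starts holds 8 windows for 7 of the 10 genes, and Pecam1, Cdh5 and Vwf have none in it. The letters AGGAAG were found in 4 of the 8 windows (Eng, Flt1, Slco1a4 and a further start of Ly6c1), against 29.5% of all 32851 windows of this length. TATAAA was found in 2 of 8 (Flt1 and Ly6c1), against 12.4% of all. The core CCACCC was found in 4 of 8 windows against 28.1% of all, and the CCAAT box in 3 of 8 against 33.8%. A core of SOX factors, ACAATG, was found in 1 of 8 (Slco1a4) against 10.7%. A core bound by the zinc finger proteins of the endothelium, AGATAA, was found in 0 of 8 against 9.99%. The CCAAT and ACAATG cores have CAAT in common, and none of the cores contains another. The GC content of the windows ranged from 39.2% (Slco1a4) to 70.4% (Flt1), and no letters searched were shared by all of them.

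Ly6c1 cannot be fully told apart from related genes by short reads. Of its exonic words of 50 bases, 32.8% also occur in another gene, 21.5% in Ly6c2 and 11.1% in Ly6a. The coding sequences of Ly6c1 and Ly6c2, 396 bases each, differ at 9 bases (97.7% identical). Their first 120 coding bases are printed because they hold 6 of these differences, which are in capitals. Coding reads that cover none of the 9 differences can belong to either gene.
Ly6c1: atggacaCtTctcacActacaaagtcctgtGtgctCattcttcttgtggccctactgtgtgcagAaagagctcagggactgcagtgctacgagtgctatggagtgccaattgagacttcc
Ly6c2: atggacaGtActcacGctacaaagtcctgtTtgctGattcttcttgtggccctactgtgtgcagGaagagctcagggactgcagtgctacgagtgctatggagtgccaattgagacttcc
Ly6c2, which is used by monocytes, had 57 to 1426 counts per sample and followed Ly6c1. It was at 0.565 to 2.11 CPM in WT, and CPM here are counts relative to library size after TMM scaling, which corrects for a few genes that take up much of a library. In Cnp-Cre Jab1fl/fl replicates 1 to 4 it was at 10.9, 1.45, 7.68 and 14.4 CPM. Ly6a, itself an endothelial gene, had 442963 counts over all samples. Slco1a4 shares 1.61% of its words, mainly with Slco1a5, which had 2 to 673 counts per sample. Eng overlaps Fpgs on the opposite strand over 61 exonic bases (1.71% of its exons). The sources used here do not state whether the counting used strand or kept reads with several matches, so that values of Ly6c1 are uncertain in this respect.

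The libraries held 61485556 to 153495112 counts, with a median of 103095817, and 1 CPM stood for 67.7 to 154 counts. No pair of samples within a genotype agreed within counting error (a chi-square over genes of at least 211 per degree of freedom), and nothing in the labels says that replicates share animals. The targeted gene Cops5 had a mean and SD over 4 samples of 103 ± 39.9 CPM in WT, of 67.1 ± 18.1 CPM with Cnp-Cre Jab1fl/fl and of 58.8 ± 21.6 CPM in double mutants, and passed no test (edgeR quasi-likelihood, Benjamini-Hochberg adjusted p = 0.349 and 0.424 against WT). The groups overlapped, with 46.5 to 134 CPM in WT, 45.1 to 89.3 CPM in Cnp-Cre Jab1fl/fl and 44.4 to 90.7 CPM in double mutants, so that this transcript does not check the Jab1 labels. By quantitative PCR of sorted O1+ cells, the study reported less Cops5 RNA in Cnp-Cre Jab1fl/fl than in WT. Cdkn1a was at 41.7 ± 31.5 CPM in WT and rose to 454 ± 124 in Cnp-Cre Jab1fl/fl (adjusted p = 0.00440). In double mutants it was at 88.7 ± 18.0 CPM, with a mean above that of WT (log2 fold change 1.08 ± 0.48, adjusted p = 0.394) and below that of Cnp-Cre Jab1fl/fl (-2.35 ± 0.32, adjusted p = 0.0916). Transcripts of Cdkn1a were thus still counted in the libraries labelled p21CIP1-/-, and whether they come from outside the deleted part was not tested. The quantitative PCR of the study did not detect Cdkn1a RNA in sorted O1+ cells of double mutants. Genes of mature oligodendrocytes were present in all 12 samples, and their 12-gene summed level was 45765 to 106504 CPM in WT.

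Endothelial transcripts were present in every library of these oligodendrocyte sorts, and were higher in most mutant samples than in WT. Together the 10 genes took up 0.0280% to 0.0685% of all counts in WT. In Cnp-Cre Jab1fl/fl they took up 0.473%, 0.0796%, 0.292% and 0.418% in replicates 1 to 4, and in double mutants 0.0662%, 0.0804%, 0.268% and 0.499% in replicates 1, 2, 3 and 5. Thus 3 of 4 Cnp-Cre Jab1fl/fl samples and 2 of 4 double mutant samples stood above every WT sample in 10 of 10 genes. Cnp-Cre Jab1fl/fl replicate 2 was the lowest of its genotype in 10 of 10 genes and above every WT sample in 4 of them. Double mutant replicates 1 and 2 were above every WT sample in 4 and 2 genes.

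**Figure D1:**
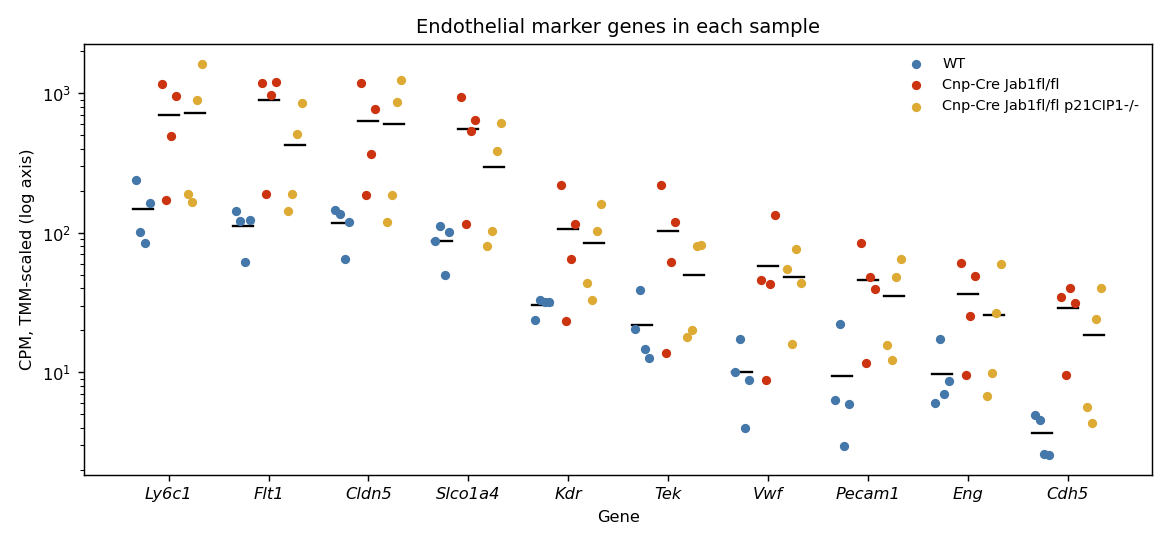
The plot gives the CPM of each of the 10 genes (log axis) in each of the 12 samples as points, colored by genotype, with the mean of 4 samples as a bar. In the mutant genotypes the points split, and the low ones lie near WT, as for Flt1 at 191 CPM in a Cnp-Cre Jab1fl/fl sample against 143 CPM in the highest WT sample.

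Between Cnp-Cre Jab1fl/fl and WT, the question was which endothelial genes differ in the sorted fraction of mice with the Cre and floxed Jab1 alleles. Of the 10 genes, 5 rose and 0 fell (edgeR's quasi-likelihood test, 4 against 4 samples, adjusted over 17716 genes, threshold 0.05), while 5.19% of all genes tested rose. All 10 fold changes were above 0, against 51% of all genes, and lay between 3.51-fold and 7.92-fold with a median of 5.15-fold. The median log2 fold change was 2.36, against 0.02 over all genes. An unadjusted p below 0.05 was reached by 10 of 10 genes and by 13.2% of all genes in this direction. In 4 of the 10 genes (Cdh5, Flt1, Slco1a4 and Cldn5) every Cnp-Cre Jab1fl/fl sample lay above every WT sample, as in 9.9% of all genes.

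Among the junction genes, Cdh5 was at 4.97, 4.52, 2.60 and 2.54 CPM in WT replicates 1, 3, 5 and 6, and at 34.4, 9.52, 40.5 and 31.5 CPM in Cnp-Cre Jab1fl/fl replicates 1 to 4. It rose by 2.99 ± 0.53 (SE) on the log2 scale, with an adjusted p of 0.00796. Cldn5 was at 147, 136, 65.2 and 119 CPM in WT and at 1192, 186, 366 and 770 CPM in Cnp-Cre Jab1fl/fl. The groups did not overlap, although Cnp-Cre Jab1fl/fl replicate 2 came close to WT, and Cldn5 rose by 2.43 ± 0.54 (adjusted p = 0.0210). Pecam1, at 6.35, 22.1, 2.97 and 5.97 CPM in WT and 84.9, 11.6, 48.0 and 39.4 CPM in Cnp-Cre Jab1fl/fl, missed the threshold (log2 fold change 2.30 ± 0.69, adjusted p = 0.0684). Here the groups overlapped, since WT replicate 3 was above Cnp-Cre Jab1fl/fl replicate 2.

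Of the receptors, Flt1, which binds VEGF-A tightly and signals weakly, was the highest per kb of exon. It was at 143, 122, 61.4 and 124 CPM in WT and at 1188, 191, 969 and 1208 CPM in Cnp-Cre Jab1fl/fl, without overlap, and rose by 2.98 ± 0.54 (adjusted p = 0.00901). Kdr, the main signaling receptor for VEGF-A, was even in WT at 23.6, 33.0, 31.99 and 31.8 CPM, and spread in Cnp-Cre Jab1fl/fl from 23.2 CPM in replicate 2 to 219 CPM in replicate 1, with 65.1 and 115 CPM in replicates 3 and 4. With its lowest mutant sample below all of WT, it did not pass (log2 fold change 1.81 ± 0.54, adjusted p = 0.0666). Tek was at 20.6, 38.8, 14.8 and 12.7 CPM in WT and at 220, 13.7, 61.7 and 119 CPM in Cnp-Cre Jab1fl/fl (2.25 ± 0.68, adjusted p = 0.0701). Eng was at 6.04, 17.4, 7.02 and 8.66 CPM in WT and at 61.01, 9.53, 25.2 and 48.8 CPM in Cnp-Cre Jab1fl/fl (1.89 ± 0.57, adjusted p = 0.0704). In both Tek and Eng, 3 of 4 mutant samples were above all of WT, and the groups overlapped through replicate 2.

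The transporter gene Slco1a4 was at 86.9, 111, 49.99 and 102 CPM in WT and at 934, 115, 535 and 640 CPM in Cnp-Cre Jab1fl/fl. It rose by 2.67 ± 0.55 (adjusted p = 0.0151), with replicate 2 of the mutant hardly above WT. Ly6c1 was at 241, 102, 84.8 and 163 CPM in WT and at 1163, 172, 497 and 950 CPM in Cnp-Cre Jab1fl/fl. It rose by 2.24 ± 0.56 (adjusted p = 0.0344) although the groups overlapped. Vwf was at 10.1, 17.4, 3.96 and 8.82 CPM in WT and at 45.9, 8.73, 42.9 and 133 CPM in Cnp-Cre Jab1fl/fl, and its highest sample was replicate 4 where most other genes peaked in replicate 1. Vwf came next to the threshold without passing it (2.52 ± 0.71, adjusted p = 0.0528).

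The number of genes that rose depended on single libraries. All 10 of 10 rose without Cnp-Cre Jab1fl/fl replicate 2, with log2 fold changes of 2.13 to 3.31, where 6.75% of all genes rose. Only 3 of 10 rose without WT replicate 5, WT replicate 6, Cnp-Cre Jab1fl/fl replicate 1 or Cnp-Cre Jab1fl/fl replicate 4, where 2.84%, 3.23%, 3.17% and 2.98% of all genes rose. On the same 8 samples DESeq2 called 10 of 10 and 9.52% of all genes higher, and limma-voom 10 of 10 and 7.38%. An edgeR fit of all 12 samples called 3 of 10 and 3.64% of all genes. With the replicate number added to that fit as a block, none of the genes was called, and fewer of all genes (last paragraph).

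**Figure D2:**
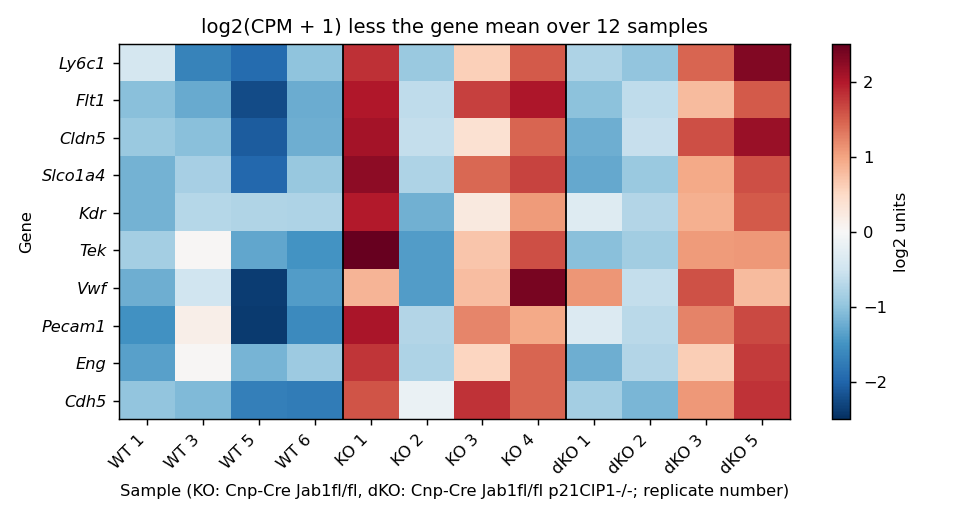
The heat map gives log2(CPM + 1) of each gene less its mean over the 12 samples, in log2 units, with samples as columns grouped by genotype and genes as rows. The 5 samples Cnp-Cre Jab1fl/fl (KO) replicates 1, 3 and 4 and double mutant (dKO) replicates 3 and 5 are above the mean in all 10 rows, and Vwf departs most from the other rows, in double mutant replicate 1.

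In double mutants the same genes had higher means than in WT, without passing edgeR's test. In 9 of 10 genes (not Vwf) replicates 3 and 5 were the high samples and replicates 1 and 2 the low ones. The log2 fold changes were all above 0 (50% of all genes were) and ranged from 1.20 (Tek) to 2.37 (Cldn5), with a median of 1.91 (2.29-fold to 5.16-fold) against 6.86e-05 over all genes. None of the 10 rose by edgeR, where adjusted p ran from 0.135 (Vwf) to 0.439 (Eng) and 0.175% of all genes rose. At an unadjusted p below 0.05 there were 8 of 10 (not Tek or Eng), against 7.82% of all genes, and DESeq2 called 7 of 10 against 3.74% of all genes. Groups did not overlap in 1 of 10 genes (Flt1) against 4.52% of all genes.

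By role, Cldn5 was at 119, 188, 859 and 1252 CPM in double mutant replicates 1, 2, 3 and 5 (log2 fold change 2.37 ± 0.69 against WT, adjusted p = 0.200), and Cdh5 at 5.59, 4.35, 24.1 and 40.3 CPM (2.34 ± 0.73, adjusted p = 0.225). Pecam1 followed with 15.6, 12.2, 48.4 and 65.2 CPM (1.91 ± 0.72). In all 3 junction genes, replicates 3 and 5 were the high samples and replicates 1 and 2 lay at or near WT. Flt1 was at 144, 190, 509 and 858 CPM (1.91 ± 0.56, adjusted p = 0.201), and Kdr at 43.5, 32.8, 103 and 160 CPM (1.49 ± 0.47, adjusted p = 0.230). Tek, at 17.8, 20.2, 80.1 and 81.6 CPM, and Eng, at 6.77, 9.88, 26.5 and 59.5 CPM, had the smallest fold changes, 1.20 ± 0.58 and 1.39 ± 0.68. The receptors thus showed the same split of 2 low and 2 high samples.

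Slco1a4 was at 80.5, 103, 384 and 608 CPM in double mutants (1.74 ± 0.61 against WT) and Ly6c1 at 190, 165, 897 and 1631 CPM (2.28 ± 0.72). Vwf broke the split, with 54.6, 16.0, 76.7 and 43.7 CPM, since replicate 1 was above replicate 5 (2.24 ± 0.55).

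The comparison of double mutants with Cnp-Cre Jab1fl/fl asks what differs when the p21CIP1 knockout alleles are added. None of the 10 genes passed edgeR's test in either direction (adjusted p of 0.996 or more), as did 0% of all genes higher and 0% of all genes lower. At an unadjusted p below 0.05 there were 0 of 10, against 5% of all genes (885) in either direction, and DESeq2 called 0 of 10 while it called 20 genes higher (0.113%) and 67 lower (0.378%). The values farthest from 0 were those of Flt1 and Tek, with log2 fold changes of -1.06 ± 0.66 and -1.05 ± 0.76, followed by Slco1a4 with -0.92 ± 0.72. Cldn5 and Ly6c1 were at -0.06 ± 0.76 and 0.05 ± 0.76. In all, 9 of 10 were below 0 and 1 above (51.3% of all genes were above), with a median of -0.44, and with standard errors of 0.65 to 0.76 differences of this size were not detectable between the mutant genotypes.

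**Figure D3:**
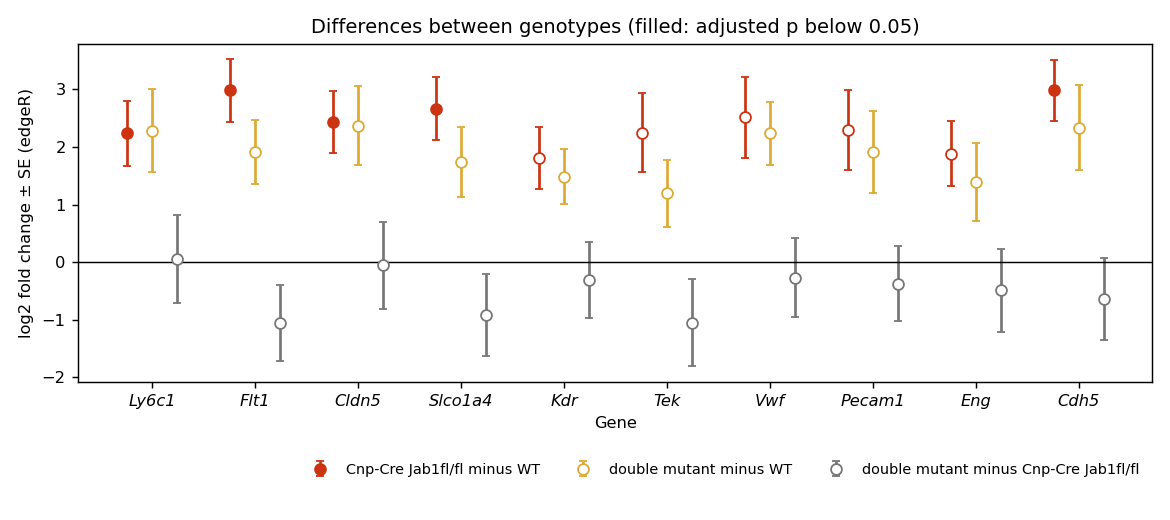
Points give the edgeR log2 fold change of each gene with its standard error as a bar, for Cnp-Cre Jab1fl/fl against WT, double mutants against WT and double mutants against Cnp-Cre Jab1fl/fl, each with 4 samples per genotype, and filled points had an adjusted p below 0.05. Filled points occur only for Cnp-Cre Jab1fl/fl against WT (Ly6c1, Flt1, Cldn5, Slco1a4 and Cdh5), and the first and second comparison share the WT samples.

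Per kb of exon, Ly6c1 and Cldn5 led in all genotypes. In WT they were at 95.3 ± 45.6 and 82.4 ± 25.5 CPM per kb (SD, n = 4), and Ly6c1 was above Cldn5 in 3 of 4 samples, so that their order was not clear of the spread. Slco1a4 (22.9 ± 7.03) and Flt1 (10.3 ± 3.22) followed, each above the next gene in 4 of 4 WT samples. Kdr (5.08 ± 0.74) and Tek (4.62 ± 2.53) exchanged places in 2 of 4 samples, and Eng (2.74 ± 1.45), Pecam1 (2.26 ± 2.09), Vwf (1.03 ± 0.57) and Cdh5 (0.92 ± 0.32) were lowest. In Cnp-Cre Jab1fl/fl the leading pair stood at 450 ± 288 and 444 ± 317 CPM per kb, each above the other in 2 of 4 samples, and Slco1a4 and Flt1 again came next at 145 ± 88.7 and 81.1 ± 43.6. The first 4 places were the same in double mutants, at 466 ± 450, 427 ± 385, 76.9 ± 65.5 and 38.8 ± 30.2 CPM per kb. Cdh5, last by mean in WT and in double mutants, came before Vwf in Cnp-Cre Jab1fl/fl, but their order was not clear of the spread. Vwf was above Cdh5 in 2 of 4 WT and 3 of 4 double mutant samples, and Cdh5 above Vwf in 3 of 4 Cnp-Cre Jab1fl/fl samples.

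The 10 genes varied together between samples. Over the 12 samples, Pearson's r of log2(CPM + 1) between the 45 pairs ran from 0.72 (Vwf and Eng) to 0.98 (Flt1 and Slco1a4), with a median of 0.91. With each genotype centred on its own mean, r was 0.57 to 0.98 with a median of 0.88, so that the common movement was also present within genotypes. Without the 2 samples farthest from the median (Cnp-Cre Jab1fl/fl replicate 1 and double mutant replicate 5), the median r over 10 samples was 0.86 (Spearman's rho 0.72). These are descriptions, since the values share libraries and scaling, and the samples fall into a low and a high set. The mean of the 10 genes had an SD of 1.32 log2 units over samples, and single genes departed from it with an SD of 0.29 (Slco1a4) to 0.78 (Vwf). Vwf had the lowest r with the mean of the others, 0.81 against 0.93 to 0.98, and was 1.81 log2 units above that common profile in double mutant replicate 1.

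Of all tested genes outside the 10, Grrp1 (r = 0.984), Cxcl12 (0.982), AC138228.2 (0.982), Acvrl1 (0.979) and Sox17 (0.978) had the profile most like the mean of the 10 over the 12 samples. By gene, the nearest was Bsg for Cldn5 (0.985), Robo4 for Pecam1 (0.977), Cxcl12 for Cdh5 (0.982), Esam for Kdr (0.967) and Egfl7 for Flt1 (0.991). For Tek it was Cabp1 (0.964), for Slco1a4 Flt1 (0.983), for Ly6c1 Id1 (0.990), for Vwf Akap12 (0.916) and for Eng Tie1 (0.976). Many of these are known endothelial genes, among them the junction gene Esam, the receptor genes Acvrl1, Robo4 and Tie1 and the secreted factor Egfl7.

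Further endothelial genes, from lists drawn up by role, were also higher in Cnp-Cre Jab1fl/fl. In none of the lists did a gene fall, while 2.46% of all genes did. Of 20 other pan-endothelial genes, 14 rose (median log2 fold change 2.45), as did 9 of 16 endothelial transcription factors (2.31) and 8 of 18 other receptors (2.03), against 5.19% of all genes and a median of 0.02. Examples were Egfl7, from 37.7 ± 13.4 to 228 ± 125 CPM (2.60 ± 0.50, adjusted p = 0.0117), and the ETS factor Fli1, from 5.20 ± 1.88 to 51.1 ± 25.6 CPM (3.30 ± 0.52, adjusted p = 0.00491). Lyl1, a factor shared by endothelial and blood cells, rose most among transcription factors, from 0.198 ± 0.168 to 17.5 ± 5.96 CPM (adjusted p = 0.00331), and Lef1, an effector of WNT signaling in the barrier, rose by 2.95 ± 0.54 (adjusted p = 0.00935). Among receptors, the phosphatase Ptprb, a partner of Tek, rose from 38.5 ± 18.0 to 325 ± 179 CPM (adjusted p = 0.0110), Adgrf5 by 2.92 ± 0.62 and the semaphorin and VEGF coreceptor Nrp2 by 1.97 ± 0.39. Of the remaining pan-endothelial examples, Ecscr rose by 4.00 ± 0.68 and Apold1 by 2.85 ± 0.53.

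Of the genes of the barrier only part passed the test, where 5.19% of all genes rose. Fold changes were above 0 in 10 of 12 other junction genes and 16 of 17 transporters, against 51% of all genes. Of 12 other junction genes 3 rose (median 2.06), namely Cgnl1 from 19.5 ± 4.62 to 172 ± 114 CPM, Esam by 2.41 ± 0.60 and F11r by 2.60 ± 0.44. Of 17 barrier transporters 5 rose (median 1.63), including the drug efflux pump Abcb1a, from 22.3 ± 8.05 to 211 ± 123 CPM (3.24 ± 0.55, adjusted p = 0.00679), the amino acid transporter Slc7a1 (2.75 ± 0.57) and the organic anion transporter Slc22a8 (2.54 ± 0.62). Of 9 arterial and venous genes 4 rose (median 2.24), with the arterial genes Bmx (4.10 ± 0.99), Gja4 (2.89 ± 0.60) and Sema3g (3.19 ± 0.68) among them. Of 11 activation and leakage genes 8 could be tested and 2 rose, Il1r1 from 1.19 ± 0.71 to 20.8 ± 18.6 CPM and Ch25h from 0.0778 ± 0.156 to 11.3 ± 16.4 CPM (adjusted p = 0.0342 and 0.0490). The list median was 3.88, Sele, Selp and Esm1 were too low to test, and both genes that rose had an SD near or above their mutant mean.

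No ligand of these receptors passed the test. Of 13 ligand genes, Gdf2 was at 0 counts everywhere, and 12 were tested. Of these, 0 passed in either direction, which is near the share of all genes, of which 5.19% rose and 2.46% fell. The median log2 fold change was 0.01, with 6 values on each side of 0. They ranged from -1.08 ± 0.46 (Wnt7b) to 3.44 ± 1.47 (Angpt2). At the highest levels per kb were Vegfa, the ligand of Flt1 and Kdr (184 ± 62.4 CPM in WT and 152 ± 37.4 in Cnp-Cre Jab1fl/fl, -0.28 ± 0.34, adjusted p = 0.693), Vegfb (-0.53 ± 0.29) and the WNT receptor ligand Ndp (-0.28 ± 0.34). In double mutants, against WT and against Cnp-Cre Jab1fl/fl, no gene of any of these endothelial lists passed in either direction. List medians were 0.01 to 3.92 and -1.29 to 0.51. Few genes of any kind were called there. Against WT 0.175% of all genes rose, and between the mutant genotypes 0% passed in either direction.

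**Figure D4:**
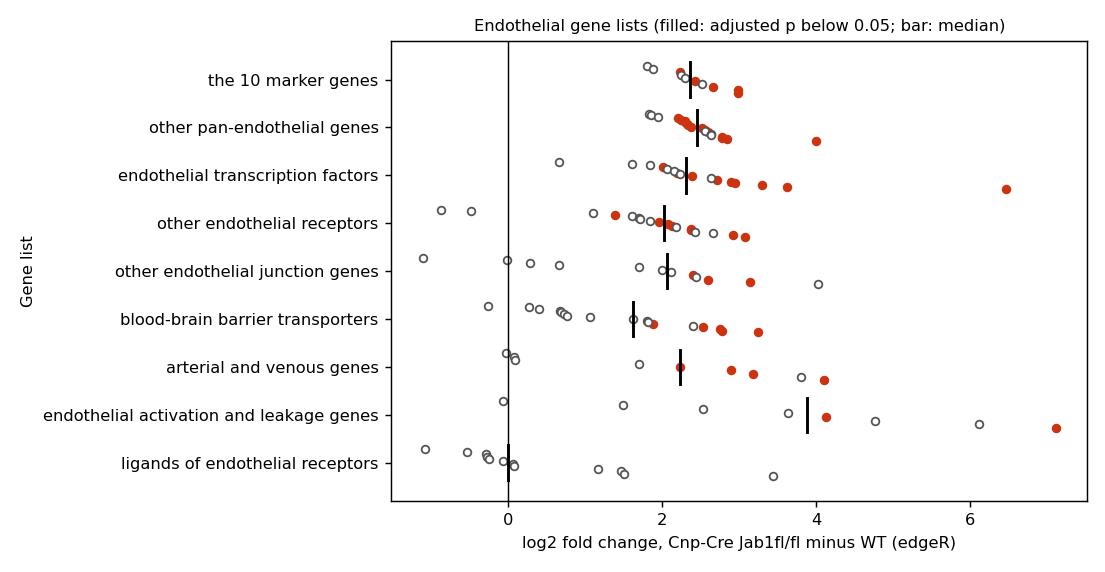
Each point is a gene of an endothelial list, at its edgeR log2 fold change between Cnp-Cre Jab1fl/fl and WT (4 samples each), filled where the adjusted p was below 0.05, and the bars are list medians. The median was 2.36 for the 10 marker genes and 0.01 for the ligands. None of the ligands passed, where 5.19% of all genes rose and 2.46% fell.

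Markers of other cell types moved with the 10 genes in part, and their part in the results was not tested. Mural cells, which wrap the same capillaries, were represented by 13 genes with a summed level of 298 to 546 CPM in WT, 1048 to 1839 CPM in Cnp-Cre Jab1fl/fl and 321 to 1780 CPM in double mutants, and 5 of 12 tested rose in Cnp-Cre Jab1fl/fl (Vtn from 156 ± 50.8 to 756 ± 122 CPM, Higd1b from 6.91 ± 1.54 to 39.5 ± 12.6 CPM). In Cnp-Cre Jab1fl/fl replicate 2, the sample with low endothelial values, the mural sum was 1048 CPM and thus above all of WT. Vtn weighs heavily in such a sum. As a mean of log2(CPM + 1) over the mural genes, this sample was closer to WT, at 3.97 against 2.46 to 3.71. The same mean over the 10 endothelial genes was 5.16, against 4.23 to 5.33 in WT. Acta2, a gene of smooth muscle, was not called (2.08 ± 1.62). Of the 12 mural fold changes between Cnp-Cre Jab1fl/fl and WT, 10 were above 0 and 2 below. Fibroblast genes summed to 24.3 to 134 CPM in WT, 91.5 to 402 CPM in Cnp-Cre Jab1fl/fl and 31.9 to 335 CPM in double mutants, and 0 of 5 tested passed (Dcn 2.68 ± 0.86, Col1a2 0.60 ± 0.56 and Slc6a13 2.47 ± 1.17).

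Microglia, which carry CD45 at a low level and CD11b and should be removed by the sort, were represented by 15 genes at 135 to 292 CPM in WT, 1052 to 2376 CPM in Cnp-Cre Jab1fl/fl and 360 to 15633 CPM in double mutants, the highest sum being in replicate 3. Of these, 14 of 15 rose in Cnp-Cre Jab1fl/fl, with C1qb at 4.41 ± 0.64 and Tyrobp at 4.30 ± 0.83. Choroid plexus genes were at 297 to 4106 CPM in WT, 6503 to 24671 CPM in Cnp-Cre Jab1fl/fl and 5431 to 24088 CPM in double mutants, and 2 of 5 rose (Ttr 2.79 ± 0.73 and Kcnj13 2.19 ± 0.59), while Folr1 was at 2.18 ± 0.81. Mature oligodendrocyte genes went the other way, at 9052 to 35439 CPM in Cnp-Cre Jab1fl/fl and 17009 to 53237 CPM in double mutants. In Cnp-Cre Jab1fl/fl 8 of 12 fell, against 2.46% of all genes. Among them was Cnp, the gene that drives the Cre, which fell by 3.27 on the log2 scale (SE 0.61). Whether the Cre allele itself lowers the counts of Cnp was not tested. Mbp (0.27 ± 0.51) did not pass.

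Some of the 10 genes are also used by blood cells. Platelets, which also hold Vwf, gave 3.70 to 17.4 CPM over 10 genes in WT, 6.05 to 17.7 CPM in Cnp-Cre Jab1fl/fl and 4.82 to 15.9 CPM in double mutants, with Pf4, Gp9 and Ppbp at means of 0.461 to 1.90 CPM in WT and Cnp-Cre Jab1fl/fl and 3.80, 0.948 and 0 CPM in double mutants. Of 3 platelet genes tested 0 passed. Monocytes and neutrophils, which use Ly6c2, gave 0.625 to 2.14 CPM in WT, 1.99 to 17.5 CPM in Cnp-Cre Jab1fl/fl and 2.30 to 108 CPM in double mutants, where S100a8 and S100a9 were at 0 in Cnp-Cre Jab1fl/fl and the high sum was that of replicate 3. Erythroid genes were at 884 to 10921 CPM in WT, 5220 to 88312 CPM in Cnp-Cre Jab1fl/fl, highest in replicate 1, and 4323 to 22175 CPM in double mutants, and 0 of 6 passed (Hba-a1 1.98 ± 0.83, Hba-a2 2.29 ± 0.86, Hbb-bs 2.24 ± 0.92). In the double mutants with high endothelial values, replicates 3 and 5, the erythroid sums were 6175 and 4323 CPM, within the WT range. Astrocyte genes were at 4429 to 9622 CPM in WT, 3135 to 7175 CPM in Cnp-Cre Jab1fl/fl and 3531 to 9147 CPM in double mutants, with 0 of 8 called (Slc1a3 -0.72 ± 0.40, Gjb6 -0.47 ± 0.37, Aldoc -0.28 ± 0.38). Neuron genes were at 148 to 261, 240 to 759 and 231 to 745 CPM, with 0 of 8 called (Snap25 0.52 ± 0.41, Tubb3 0.86 ± 0.51, Stmn2 1.67 ± 0.65).

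**Figure D5:**
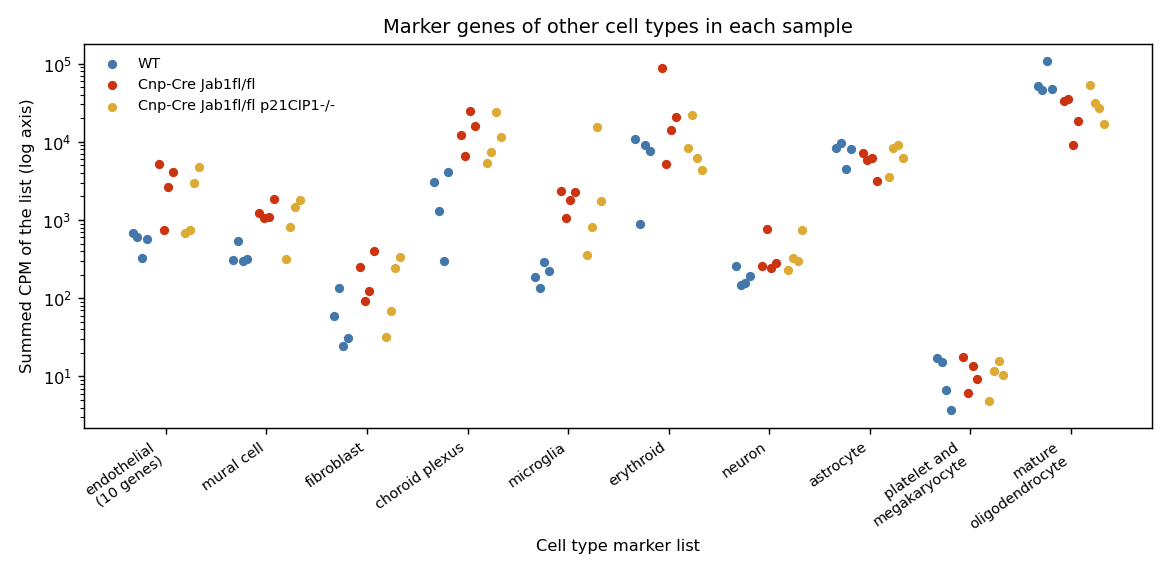
Points give the summed CPM of the marker genes of each cell type (log axis) in each of the 12 samples, colored by genotype, beside the sum over the 10 endothelial genes. Mural, choroid plexus and microglia sums are higher in all 4 Cnp-Cre Jab1fl/fl samples than in any WT sample, the endothelial sum is higher in 4 of 4 with replicate 2 just above WT (740 against at most 689 CPM), and platelet and astrocyte sums overlap between genotypes.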

How the data were processed

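RNA-Seq was done on 12 samples of sorted O1+ CD45- cells, 4 per genotype, grouped by their labels. The authors amplified the RNA with SMART-Seq v4, used Trimmomatic 0.32 for trimming and STAR 2.5.3a for alignment to GRCm38, and deposited the unnormalized featureCounts counts of GENCODE basic genes by symbol (versions as in the submitters' processing notes). No column was left out (0). Positions and lengths were taken from GENCODE M21 (54402 of 55376 symbols, 98.2%, matched 1 gene), which may differ in places from the annotation the authors counted on.

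The main test was edgeR 4.0.16 (R 4.3.3), quasi-likelihood, on the 8 samples compared, with TMM factors, over the 17716 genes that reached 1 CPM in 4 or more of the 12 samples, Benjamini-Hochberg adjusted, threshold 0.05. The standard error is the fold change divided by the root of F. On simulated counts for Cnp-Cre Jab1fl/fl against WT, with 200 of 17716 genes changed by 3 on the log2 scale, edgeR called 65% of them (2.26% of its calls were false), DESeq2 77% (35.0% false) and limma-voom 56.5%. Totals were 61485556 to 153495112 counts per sample, so that the spread between samples set the precision. Reads carry no molecular identifiers. P-values measure the spread between samples of 2 brains each.

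The 10 genes, the gene lists, tests and alternatives were chosen with earlier results of these data known. Named were the 10 genes, per endothelial list up to 3 genes with the smallest adjusted p among those that passed (else those highest in CPM per kb), per cell type list the 3 highest in CPM per kb, the genes most like the members in profile, copies and overlapping genes, Cops5 and Cdkn1a. Single-gene values of some genes of the cell type lists are not reported here. Alternatives were DESeq2 1.42.0, limma-voom 3.58.1, other filters, upper-quartile scaling, all 12 samples, a replicate block and each sample left out.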

Additional observations from a re-analysis of the deposited data

Results flagged for a closer look

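Of 30 groups of 4 samples (10 genes in 3 genotypes), 1 held a sample set apart from the others. Kdr in WT replicate 1 was at 23.6 CPM, while the nearest other WT sample was at 31.8 CPM, a gap of 0.871 of the range of the group against a critical value of 0.829. Chance sets apart about 1 in 20 such groups.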

How the results depend on the processing

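Counts of calls depended on the setting, and the causes were not tested. For Cnp-Cre Jab1fl/fl against WT, the 919 higher and 435 lower genes became 1687 and 1002 with DESeq2 and 581 higher with no filter, and the 5 of the 10 genes that rose became 10 with DESeq2, limma-voom or a mean of at least 10 CPM, and 3 in a fit of all 12 samples. Leaving out each sample gave 504 to 1196 higher and 174 to 667 lower genes, and 3 to 10 of the 10. Their log2 fold changes stayed between 1.17 and 3.31. For double mutants against WT, the 31 higher and 3 lower genes became 663 and 199 with DESeq2 (7 of the 10 higher), 20 and 1 with no filter, 123 and 17 with a mean of at least 10 CPM, 157 and 7 with all 12 samples, and 9 lower with limma-voom. Leaving out samples gave 1 to 202 and 0 to 72. Between the mutant genotypes, 0 and 0 became 20 and 67 with DESeq2, 5 lower with a mean of at least 10 CPM, 1 lower with limma-voom and 0 to 2 lower with a sample left out. The log2 fold change there turned sign for Ly6c1 (-0.026 with a mean of at least 10 CPM, -0.43 with limma-voom, from -0.74 to 0.43 with samples left out), Vwf (0.78 with the block, from -0.63 to 0.59 with samples left out), Cldn5 (from -0.69 to 0.46), Kdr (from -0.82 to 0.34) and Pecam1 (from -0.86 to 0.12).

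No pairing by replicate number was seen, as the correlations of deviations of samples with the same number ran from -0.19 to 0.08. Cnp-Cre Jab1fl/fl and WT share only numbers 1 and 3, and the labels do not say what the numbers mean. A shared batch was thus not excluded. With the replicate number as a block, Cnp-Cre Jab1fl/fl against WT gave 76 higher and 3 lower genes and 0 of the 10, and double mutants against WT gave 8 higher and 0 lower. The lowest level, 2.54 CPM of Cdh5 in WT replicate 6, stood for 234 counts, above the floor of 3 counts. Reads of amplified RNA without molecular identifiers do not tell how many molecules this was. Whether depth or input limited these genes was not tested.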
